A study of Mus musculus with 6 samples.

Results

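The PIWI and Tudor genes of the piRNA pathway were examined in testes of Nxf2 knockout (KO) and wild-type (WT) mice at postnatal day 21. The set was fixed by name and holds 10 genes: the PIWI genes Piwil4, Piwil2 and Piwil1, the Tudor genes Tdrd1, Tdrd5, Tdrd6, Tdrd7 and Tdrd9, and the pathway factors Mael and Mov10l1. Every probe set whose single annotated symbol is one of these genes was taken, which gave 11 probe sets for 9 genes, out of 18193 genes with such a probe set in all. Tdrd6, a Tudor gene of the chromatoid body, had no probe set under its own single symbol and was not analysed here. Of the 11 probe sets 9 were bright enough to be tested, 1 for each of the 9 genes.

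The series holds 6 one-colour Affymetrix arrays, each of the whole testis RNA of 1 sample: 3 Nxf2 KO and 3 WT, all from mice 21 days old. Nxf2 is an X-linked germ cell relative of the main mRNA export receptor gene. The sources used here give no strain, no design of the Nxf2 allele and no number of animals per sample. P-values therefore cover only the spread among these 6 samples, which may be technical. The samples were described as pairs by the submitters, and the labels number them 1 to 3 in each genotype.

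PIWI proteins are Argonaute relatives that carry piRNAs, the small RNAs that keep transposons silent in the germ line. In the mouse, MIWI2 (Piwil4) works in the nuclei of fetal prospermatogonia, where it guides DNA methylation to transposons, and is found again in some undifferentiated spermatogonia. MILI (Piwil2) is present from fetal germ cells to spermatids, and MIWI (Piwil1) appears in pachytene spermatocytes and binds the abundant pachytene piRNAs. Tudor proteins bind methylated arginines near the start of PIWI proteins and gather them in germ granules. MYBL1 (A-MYB) switches on pachytene piRNA precursors and many protein genes of the pathway when spermatocytes reach pachytene.

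The promoter windows of 3 members are printed here, since Piwil4 and Tdrd7 are the members that passed the test below and Piwil1 is the pachytene PIWI gene set against Piwil4. Sequences are from RefSeq on GRCm38.p6 and run 5′ to 3′ from 250 bases before to 50 bases after the most upstream annotated start. Capitals mark the MYB motifs CAACNG and TAACNG on either strand, and no 2 of the marked sites overlap. The windows are chr9:14740623-14740922, minus strand, for Piwil4, chr4:45965085-45965384, plus strand, for Tdrd7, and chr5:128735996-128736295, plus strand, for Piwil1.
Piwil4: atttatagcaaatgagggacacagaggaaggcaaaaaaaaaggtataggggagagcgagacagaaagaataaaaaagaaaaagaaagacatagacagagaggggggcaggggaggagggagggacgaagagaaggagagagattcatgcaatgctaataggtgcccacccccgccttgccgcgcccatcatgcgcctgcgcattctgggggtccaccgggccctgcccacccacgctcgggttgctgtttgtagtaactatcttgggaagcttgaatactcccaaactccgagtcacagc
Tdrd7: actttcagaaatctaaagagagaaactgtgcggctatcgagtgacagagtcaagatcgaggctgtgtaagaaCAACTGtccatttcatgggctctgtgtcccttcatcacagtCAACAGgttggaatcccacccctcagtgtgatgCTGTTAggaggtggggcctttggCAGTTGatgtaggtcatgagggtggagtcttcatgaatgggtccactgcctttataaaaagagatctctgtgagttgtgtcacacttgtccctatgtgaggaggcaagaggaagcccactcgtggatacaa
Piwil1: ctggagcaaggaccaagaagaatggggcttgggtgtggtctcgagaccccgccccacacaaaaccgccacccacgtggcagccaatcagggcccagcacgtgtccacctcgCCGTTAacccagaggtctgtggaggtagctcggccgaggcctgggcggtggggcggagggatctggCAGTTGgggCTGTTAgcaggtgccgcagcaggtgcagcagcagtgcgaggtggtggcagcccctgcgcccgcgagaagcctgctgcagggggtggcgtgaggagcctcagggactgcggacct

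The Piwil4 window held neither motif, the Tdrd7 window held 4 sites and the Piwil1 window held 3. Of 32851 RefSeq promoter windows of this length, 49.7% held either motif, 35% CAACNG and 23.3% TAACNG. Windows were found for 8 of the 10 members, and 5 of the 8 most upstream windows held a site: Mov10l1 2, Tdrd5 2 and Mael 1 beside those of Tdrd7 and Piwil1. The windows of Tdrd1 and Tdrd9 held none. The table lists a second start of Piwil4 with 1 site, and 2 further starts of Tdrd7, 1 with 3 sites and 1 with none. A match of letters describes the window and is not a binding site, and the matches were not tested against the array values.

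Values are signals of the MAS5 algorithm on a linear scale, in which each array had been multiplied to the same trimmed mean. Nxf2 itself, the targeted gene, averaged 118 ± 12.4 in KO and 367 ± 23.6 in WT testes (SD, n = 3 each), and every KO array was below every WT array. The sources used here do not say whether its probes lie within the deletion. The median signal was between 37.1 and 40.9 on the 6 arrays. The tissue label was checked against germ cell markers: all 10 listed genes each of leptotene and zygotene and of pachytene spermatocytes lay above the dim limit of 20.5 in every KO and every WT array. Of the 10 round spermatid genes 8 did so in every KO array and all 10 in every WT array; Actl7a was below the limit in all 3 KO arrays and Acrv1 in 2 of them. Tests ran across 27022 probe sets with limma on log2(signal + 7), and "called" means an adjusted p (Benjamini-Hochberg, over all of these) under 0.05. By that rule 7.49% of all tested probe sets were called, 2.26% (610) higher and 5.23% (1414) lower in KO; after centring each array on its median these were 247 and 1382.

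Of the 9 measured members 1 rose, 1 fell and 7 did not pass the test. Piwil4 rose and Tdrd7 fell in KO testes, and each was the only probe set of the members to pass in its direction. Taken by the brightest probe set, 10.3% of all 12971 tested genes were called, so 2 of 9 is a count too small to set apart from that share. The members' median log2 fold change was -0.065, against 0.037 over all tested probe sets. Without KO replicate 3 the members' median was -0.0044. The plot of signal by array shows the values behind each of these statements.

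**Figure D1:**
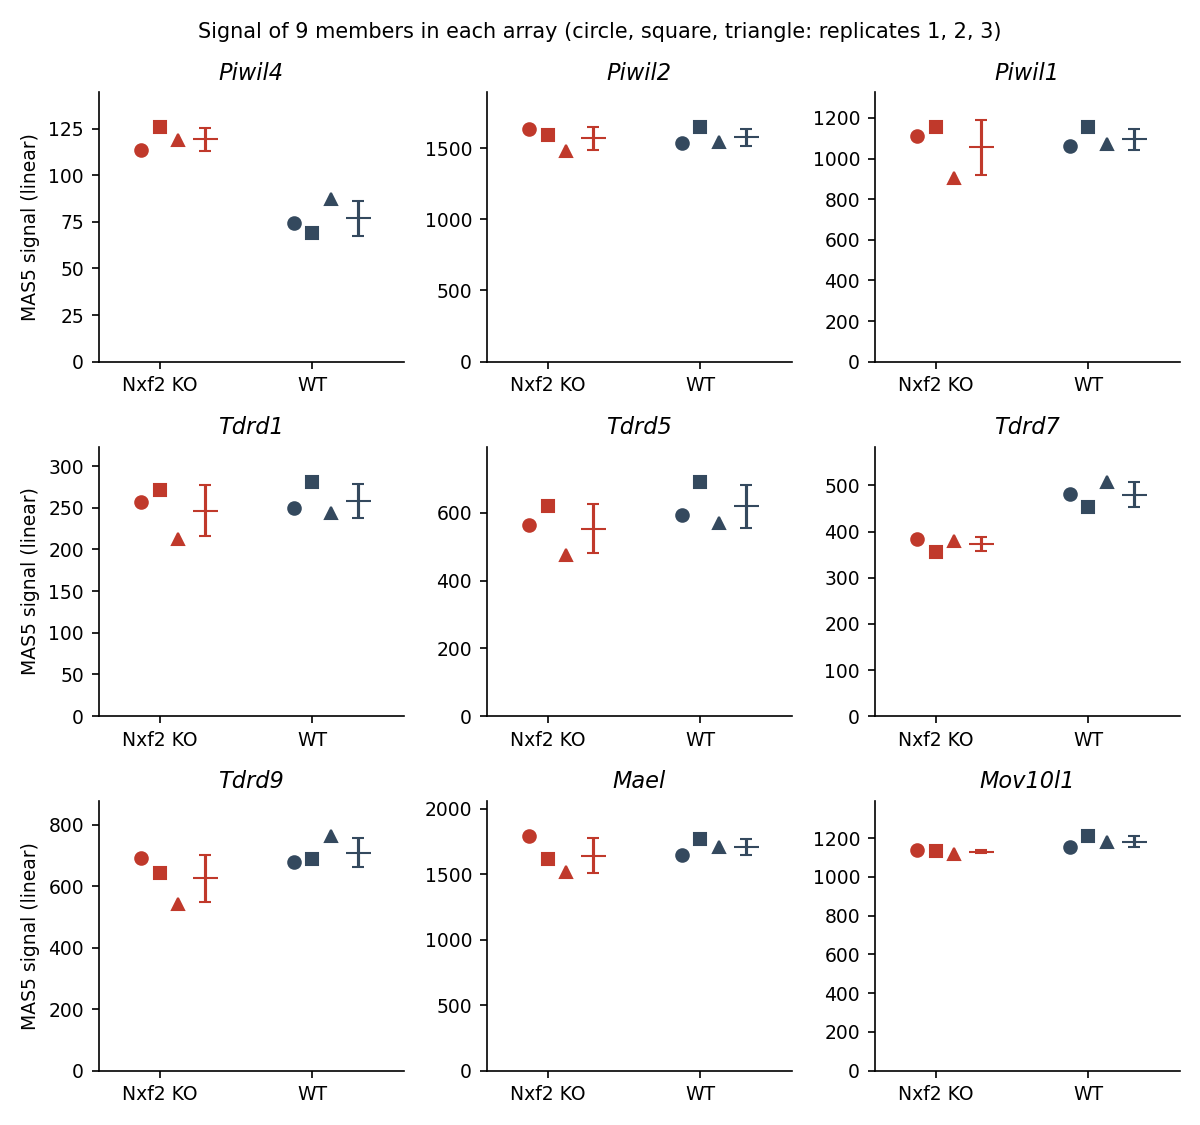
MAS5 signal (linear scale, from 0) of the brightest probe set of each of 9 members in the 3 Nxf2 KO arrays (red, left) and the 3 WT arrays (blue, right), with replicates 1, 2 and 3 as circle, square and triangle and the mean ± SD beside them. The genotypes separate widely for Piwil4 (113 or more in KO, 87.4 or less in WT) and Tdrd7, and KO replicate 3 is the lowest array for all 7 other members.

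Piwil4, the fetal nuclear PIWI gene, had signals of 113, 126 and 119 in the 3 KO arrays, against 74.5, 69.0 and 87.4 in the 3 WT arrays. All KO arrays lay above all WT arrays. The means were 119 ± 6.20 in KO and 76.9 ± 9.44 in WT (SD, n = 3 each), and the log2 fold change was 0.60 ± 0.12 (SE; limma, adjusted p = 0.0198), a 1.51-fold rise with a 95% interval of 0.33 to 0.86 on the log2 scale. The probe set is 1447564_x_at, and the suffix x marks sets in which some probes also match other sequences; whether another transcript adds to this signal was not tested. The second Piwil4 probe set, 1439716_at, was too dim to be tested, at 7.08, 6.38 and 10.3 in KO and 6.12, 4.50 and 9.92 in WT. Its groups overlapped, and at this brightness no difference could be seen.

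Piwil2, which encodes the PIWI protein shared by fetal and later germ cells, differed by less than the spread between arrays. Its signals were 1637, 1588 and 1482 in KO and 1537, 1647 and 1544 in WT. The log2 fold change was -0.0069, with a 95% interval of -0.11 to 0.099, so a change as large as that of Piwil4 lay outside the interval. Piwil1, the pachytene PIWI gene, had signals of 1109, 1154 and 902 in KO and 1060.1, 1154 and 1069 in WT. The groups overlapped, and the log2 fold change was -0.059 (interval -0.24 to 0.13; adjusted p = 0.67). Only KO replicate 3 was below the WT range.

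Among the Tudor genes, Tdrd7, which serves the remodelling of germ granules and the chromatoid body, was the one that fell. Its signals were 383, 357 and 379.95 in KO and 481, 452 and 508 in WT. Every KO array lay below every WT array. The means were 373 ± 14.6 in KO and 480.3 ± 27.9 in WT (SD, n = 3 each). The log2 fold change was -0.36 ± 0.070 (SE; limma, adjusted p = 0.0182) with a 95% interval of -0.51 to -0.20, or 1.28-fold lower. Its other probe set, 1459216_at, had signals of 2.65, 0.629 and 1.01 in KO and 0.648, 1.81 and 3.40 in WT, too dim to test.

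The other 3 measured Tudor genes did not pass. All had negative log2 fold changes, except that Tdrd1 turned to 0.036 with array weights and to 0.032 without KO replicate 3. Tdrd9, an RNA helicase gene whose product works with MIWI2, had signals of 693, 644 and 543 in KO, against 678, 687 and 763 in WT. KO replicate 1 lay inside the WT range, and the log2 fold change was -0.18 (95% interval -0.38 to 0.014; adjusted p = 0.203). Tdrd5, needed for transposon silencing and for spermatid development, had 565, 619 and 476 in KO and 595, 692 and 570.4 in WT. Its log2 fold change was -0.16 (interval -0.39 to 0.063; adjusted p = 0.315), with 1 KO array inside the WT range. Tdrd1, a partner of MILI in the granules between mitochondria, had 257, 271 and 212 in KO and 249, 281 and 244 in WT. Only KO replicate 3 was below the WT arrays, and the log2 fold change was -0.069 (interval -0.30 to 0.17; adjusted p = 0.697).

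The pathway factors Mael and Mov10l1 did not pass either. Mov10l1, the RNA helicase gene whose product hands piRNA precursors to processing, had signals of 1137, 1133 and 1120.3 in KO, against 1155, 1210.3 and 1182 in WT. The KO arrays were all below the WT arrays, but by a small step: the log2 fold change was -0.065 (95% interval -0.16 to 0.026; adjusted p = 0.32). Mael, an HMG-box gene of transposon silencing, had 1791, 1617 and 1521 in KO and 1644, 1771 and 1709 in WT, with overlapping groups and a log2 fold change of -0.058 (interval -0.19 to 0.070). In all, the genotypes did not overlap for 3 of the 9 members, against 33.9% of all tested probe sets, which is close to the members' share.

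**Figure D2:**
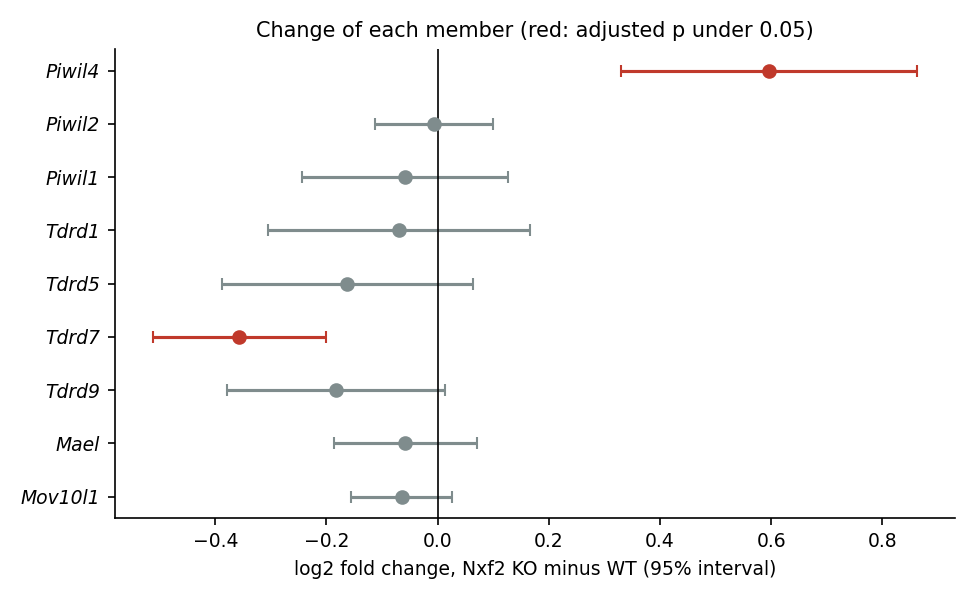
Log2 fold change (KO minus WT) of each measured member with its 95% interval from limma, red where the adjusted p was under 0.05. Piwil4 lies at 0.60 and Tdrd7 at -0.36, and the intervals of the other 7 include 0.

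One array stood apart among the uncalled members. KO replicate 3 was the lowest of the 6 arrays in 7 of the 9 members, and its median deviation from the WT mean was -0.27 on the log2 scale, against -0.0072 in KO replicate 1 and 0.0057 in KO replicate 2. Some of the other germ cell lists were also lowest in this array, and others were not. The other pathway genes had a median of -0.17, against 0.011 and -0.013 in KO replicates 1 and 2. The leptotene and zygotene list was at -0.14, against -0.012 and -0.016. The pachytene list was at -0.31, against -0.15 and -0.28. The round spermatid list was not lowest there (-0.63, against -0.78 and -0.76). The spermatogonial lists were highest there: undifferentiated at 0.38, against 0.29 and 0.25, and differentiating at 0.38, against 0.13 and 0.22. The Leydig cell list stood highest in the same array, with a median of 1.17, against 0.59 and 0.31. So did the Sertoli cell list, at 0.33 against 0.24 and 0.17. The part of these cells in the members' values was not tested. Without KO replicate 3, 5 of the 9 log2 fold changes were negative and 4 positive, compared with 8 negative and 1 positive over all arrays (8 negative also after quantile normalization or median centring, and 4 with array weights). Tdrd9 was then at -0.084, Tdrd5 at -0.060, Tdrd1 at 0.032 and Piwil1 at 0.049. Piwil4 and Tdrd7 kept their calls without it, at log2 fold changes of 0.60 (adjusted p = 0.0482) and -0.37 (adjusted p = 0.0294).

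Both calls depended on other arrays. Without WT replicate 1 the adjusted p was 0.0969 for Piwil4 and 0.0958 for Tdrd7, and without KO replicate 2 it was 0.0612 and 0.0535. Tdrd7 was also not called without WT replicate 3 (adjusted p = 0.0539) or without the intensity trend (adjusted p = 0.0597). The size of the change moved little: over 15 alternatives the log2 fold change of Piwil4 was 0.45 to 0.68 and that of Tdrd7 was -0.40 to -0.32.

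**Figure D3:**
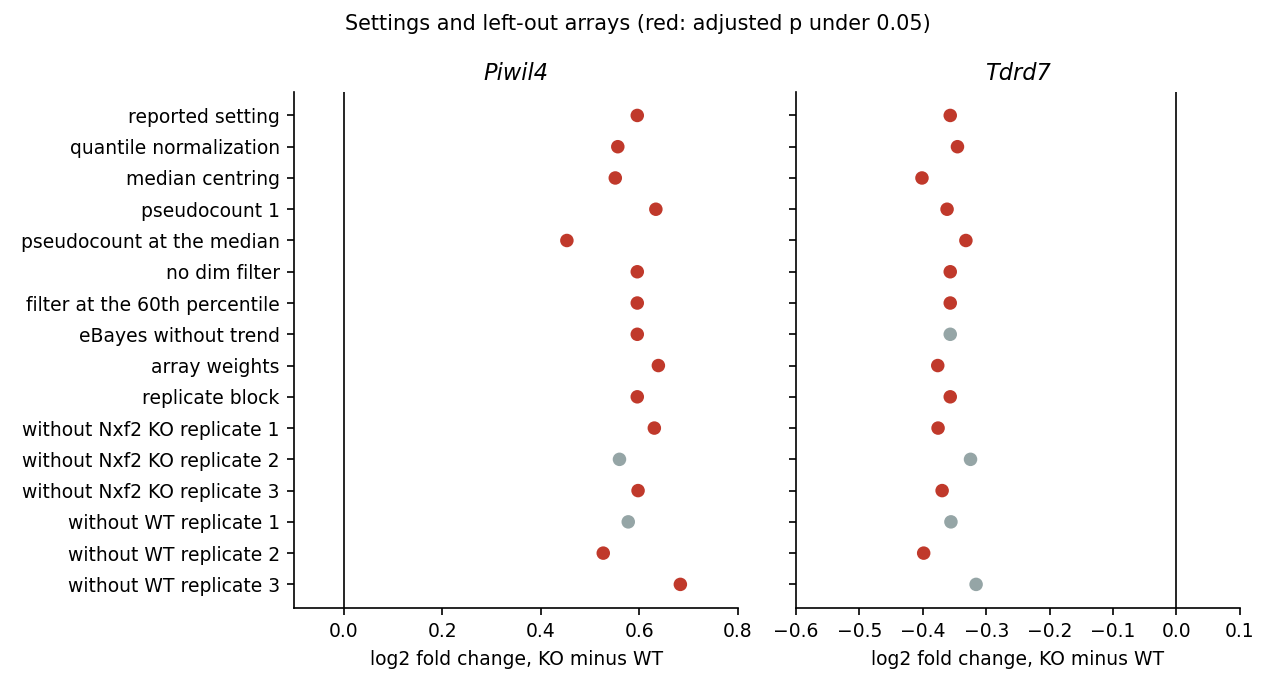
Log2 fold change (KO minus WT) of Piwil4 and Tdrd7 under the reported setting, 9 other settings and each array left out in turn, red where the adjusted p was under 0.05 and grey otherwise. Every point keeps its sign, and the call is lost for both genes without KO replicate 2 and without WT replicate 1.

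The fetal and spermatogonial members were next set against the pachytene member within each array, as a ratio that scaling of the whole array cannot move. With Tdrd6 not measured, Piwil1 alone stood for the pachytene class. Piwil2 was counted with Piwil4 as planned, although its product is present in later germ cells up to spermatids, so it does not mark spermatogonia alone. The log2 ratio of Piwil4 to Piwil1, centred on the WT mean, was 0.51, 0.59 and 0.87 in the KO arrays, against 0.0080, -0.22 and 0.21 in the WT arrays. All KO ratios were above all WT ratios, with a difference of 0.66 on the log2 scale. An exact two-sided permutation test over the 6 arrays gave p = 0.1, the smallest that 3 arrays against 3 can give, and 0.2 after Benjamini-Hochberg adjustment over the 2 pairs compared. The same ratio for Piwil2 was 0.035, -0.065 and 0.19 in KO and 0.0099, -0.014 and 0.0037 in WT. These overlapped (difference 0.052; exact permutation p = 0.7). The mean of Piwil4 and Piwil2 relative to Piwil1 differed by 0.35 between the genotypes, and by 0.27 without KO replicate 3. Of the 3 genes in it, Piwil4 alone was called.

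Germ cell stage markers moved in the same arrays. In whole testis RNA, fewer cells of a type and less RNA per cell cannot be told apart. Of 10 tested genes of undifferentiated spermatogonia, 5 rose and none fell: Zbtb16, Lin28a, Sall4, Uchl1 and Ret. Log2 fold changes were positive for 8 of the 10 and negative for 2, Gfra1 (-0.15) and Id4 (-0.15), neither of them called. The median log2 fold change of the 10 was 0.30. The summed signal of the 11 listed genes with a probe set was 3769 to 3866 in KO, against 3145 to 3164 in WT. Utf1 lay below the dim limit. Of 10 pachytene genes 5 fell and none rose: Pgk2, Adam3, Ccna1, Aurkc and Tbpl1. The pachytene median was -0.22, with a summed signal of 7982 to 9162 in KO and 9820 to 10092 in WT. All 10 round spermatid genes fell, with a median of -0.77: Acrv1, Actl7a, Spaca1, Tssk1, Actl7b, Tekt2, Zpbp, Crem, Acr and Zpbp2, of which Actl7a passed the filter only through the WT arrays. Markers of somatic cells moved as well. Of 9 tested Sertoli cell genes 4 rose, with a median of 0.25 and all 9 values positive, and of 4 Leydig cell genes 1 rose, with a median of 0.69 and all 4 positive. The summed Sertoli signal was 4268 to 4671 in KO and 3700.2 to 3862 in WT, and the summed Leydig signal was 1859 to 2999 in KO and 1497 to 1858 in WT. Their part in the germ cell values was not tested. With each array left out in turn, 2 to 4 undifferentiated spermatogonia genes rose, 1 to 6 pachytene genes fell and 2 to 10 round spermatid genes fell, with the fewest of each without WT replicate 1. Sertoli cell calls were then 1 to 2 (1 without KO replicate 1, WT replicate 1 or WT replicate 2) and Leydig cell calls 0 to 2 (0 without KO replicate 3 or WT replicate 1). None of 10 leptotene and zygotene genes was called (limma; median -0.046), Stag3 and Syce1 having the lowest p; 1 fell without KO replicate 1.

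The members were also set against these lists within each array. Relative to the median of the undifferentiated spermatogonia list, Piwil4 was at 0.24, 0.42 and 0.22 in the KO arrays and at -0.044, -0.15 and 0.13 in the WT arrays. The arrays did not overlap, so the list's median shift was smaller than that of Piwil4. Of the list's genes, Zbtb16 rose further (log2 fold change 0.93), and Lin28a (0.59) and Ret (0.54) rose nearly as far. Piwil2 relative to the same list was at -0.23, -0.24 and -0.46 in KO and -0.042, 0.053 and -0.073 in WT. Piwil1 relative to the pachytene list was at 0.17, 0.36 and 0.032 in KO and -0.036, 0.058 and -0.023 in WT, which overlap. Tdrd7 relative to the pachytene list overlapped as well, at -0.17, -0.14 and -0.023 in KO and 0.011, -0.10 and 0.091 in WT. Relative to the round spermatid list, Tdrd7 was at 0.46, 0.34 and 0.30 in KO and at -0.042, 0.056 and -0.024 in WT. These did not overlap, so Tdrd7 lay higher against that list in KO. These are descriptions of single arrays with no test, and the part of cell composition in the members' values was not tested.

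**Figure D4:**
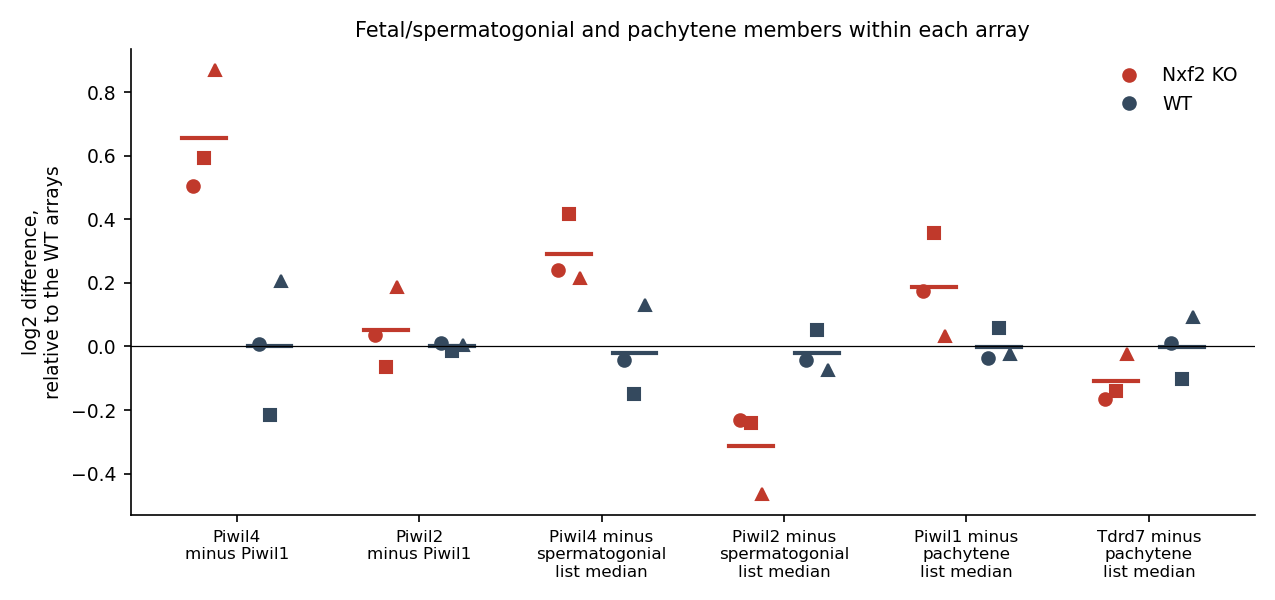
Log2 differences within each array (vertical axis, relative to the WT arrays) for Piwil4 and Piwil2 against Piwil1, and for Piwil4, Piwil2, Piwil1 and Tdrd7 against the median of a stage marker list, with KO arrays in red on the left of each pair, WT arrays in blue, and bars at the means. Piwil4 separates from Piwil1 by 0.66 and Piwil2 does not.

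Other genes of the pathway were taken from a list. Of 22 further piRNA pathway and germ granule genes 20 had a probe set and were tested: 1 fell, none rose and 19 did not pass, with a median log2 fold change of -0.060 and a range of -0.45 to 0.17. The share of all tested genes called by brightest probe set was 10.3%, so 1 of 20 is too small a count to set apart from it. The list's median was 0.0075 without KO replicate 3 and -0.11 without KO replicate 1. Exd1, whose product forms a complex with TDRD12 in piRNA amplification, had signals of 168, 177 and 152 in KO, against 228, 241 and 218 in WT. Its groups did not overlap, and the log2 fold change was -0.45 (limma, adjusted p = 0.021; 0.101 without WT replicate 1 and 0.0598 without WT replicate 2). Tdrd12 itself, singled out after its value was seen, was at -0.094 on the log2 scale and did not pass (adjusted p = 0.569). Gtsf1, a zinc finger gene that PIWI proteins need for target cleavage, was at a log2 fold change of -0.16 by its brightest probe set (adjusted p = 0.102) and at -0.25 by another (adjusted p = 0.0386). Mybl1, singled out for its role, was at 514, 508 and 365 in KO, against 539, 522 and 479 in WT, with KO replicate 3 again the lowest and an adjusted p of 0.39. Ddx4, the germ granule helicase, was at -0.066 (adjusted p = 0.473).

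**Figure D5:**
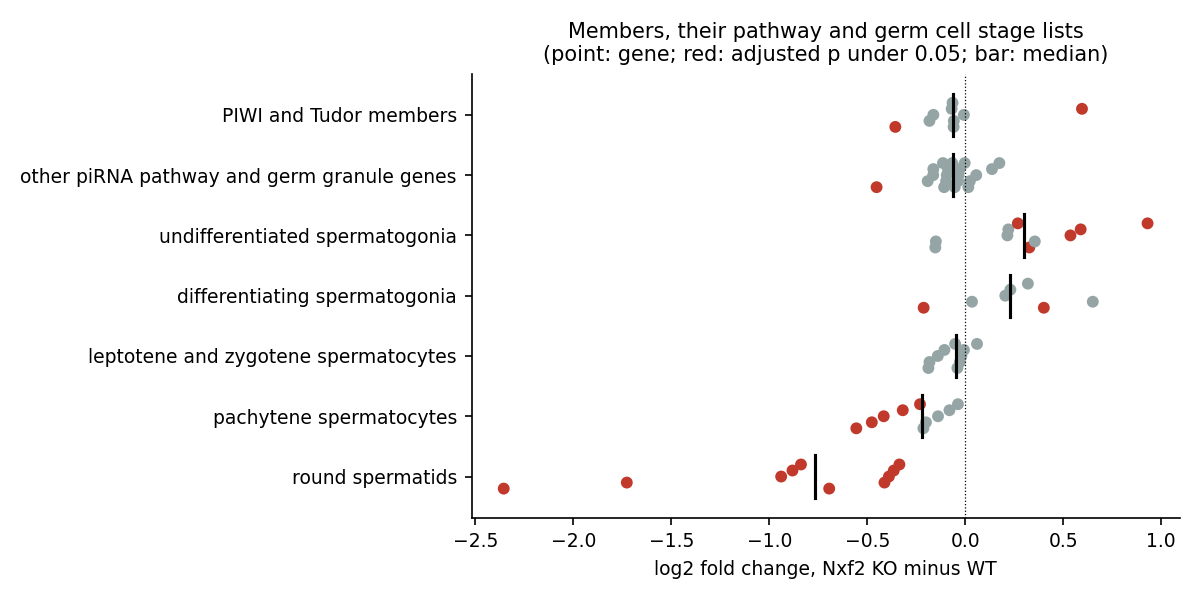
Log2 fold change (KO minus WT) of each tested gene by its brightest probe set, for the members, the other piRNA pathway genes and 5 germ cell stage lists, red where the adjusted p was under 0.05, with a bar at each median. The members' median lies at -0.065 and the other pathway genes' at -0.060. Both lie between the spermatogonial lists above 0 and the round spermatid list at -0.77. Without KO replicate 3 the members' median was -0.0044 and the other pathway genes' was 0.0075.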

How the data were processed

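The deposited values are linear signal intensities, 1 for each probe set of an array; MAS5 is named without a version, per the submitters' processing notes. The trimmed mean was 150.0 on every array when the lowest and highest 2% were left out. Detection calls were not used here. Of 45101 probe sets, 64 controls were left out; of the rest 34945 have 1 symbol in the platform annotation, 932 several and 9160 none, and symbols were updated through RefSeq (GRCm38.p6), which held 99.4%. Signals were analysed as log2(signal + 7), 7 being the 25th percentile of all values, so folds of dim probe sets are understated. Probe sets with a mean over all arrays of at least 20.5, the 40th percentile, were tested with limma 3.58.1 in R 4.3.3 (lmFit, eBayes with trend, two-sided, Benjamini-Hochberg). Each gene was taken by its brightest probe set, by the mean of the 6 arrays. The number of arrays limits the precision. The fit was tested on simulated data.

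The members and lists were chosen with earlier results of these data known. All members were named, with the genes of each list that were called, or the 2 of lowest p where none was. The alternatives were quantile normalization, median centring, 2 pseudocounts, 2 filters, no trend, array weights, a block for the replicate number, averaging the probe sets of a gene, and each array left out. Exd1 and the left-out arrays for the marker lists were added after seeing the data.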

Additional observations from a re-analysis of the deposited data

How the results depend on the processing

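No member changed the sign of a called value under any alternative run. Without the intensity trend, 1 member was called in place of 2, also by brightest probe set, and leaving out each array in turn gave 0 to 2 members. Of the other pathway genes 1 was called; leaving out an array gave 0 to 1, 0 without WT replicate 1 and without WT replicate 2, and averaging the tested probe sets of a gene gave 2, Exd1 and Gtsf1. Over all probe sets 2024 were called. This count was 1005 with no dim filter, 743 without the trend, 7217 with array weights and 4503 with the replicate block; leaving out an array gave 164 (without WT replicate 1) to 1547. The causes were not tested. The split of 610 higher and 1414 lower became 247 and 1382 after median centring, 3771 and 3446 with array weights and 2173 and 2330 with the block. The replicate numbers were not taken as pairs in the reported fit, and whether they mark the submitters' pairs was not tested. Deviations from the group means correlated at 0.079, 0.457 and 0.266 for numbers 1 to 3. Each KO replicate correlated best with the WT replicate of its own number. From the WT side, WT replicate 1 was slightly closer to KO replicate 3 (0.112). The block changed no call of a member. The difference of Piwil4 and Piwil2 from Piwil1 was 0.27 to 0.41 over 15 alternatives. The members' median was -0.13 to 0.0048, turning positive with array weights. The ratio of Piwil2 to Piwil1 turned to -0.015 without KO replicate 3. Detection calls were not used, so probe sets near the dim limit have no background limit of their own.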

Other observations

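Tudor domain genes outside the germline pathway were measured as well. None of 7 tested was called by limma, with a median log2 fold change of 0.0016. Akap1, which anchors signalling proteins and RNA at mitochondria, was at 0.40 on the log2 scale (adjusted p = 0.136) and Tdrd3 at -0.16 (adjusted p = 0.149). Of 7 genes of differentiating spermatogonia Crabp1 rose and Dmrtb1 fell, and neither direction had a call without KO replicate 3, WT replicate 1 or WT replicate 2. The median log2 fold change of these 7 genes was 0.23, with 6 values positive and 1 negative. Of 9 Sertoli cell genes 4 rose and none fell (Wt1, Inha, Shbg and Drd4), and of 4 Leydig cell genes Star rose and none fell.

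The 4 probe sets of Rnf17, a Tudor gene of germ granules that was singled out after its values were seen, disagreed in size. By log2 fold change the brightest was at -0.037 (adjusted p = 0.815) and the dimmest at -0.59, with signals of 65.1, 97.6 and 74.0 in KO, against 132, 130.3 and 102 in WT (adjusted p = 0.051). All 4 had negative log2 fold changes and none was called.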
